A study of Homo sapiens with 3 samples.

Results

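The keratin genes of the human genome were examined for 2 histone modifications in H2087, an established lung adenocarcinoma cell line. Members were the protein-coding genes of GENCODE 44 on hg19 whose symbol is KRT followed by a number, with or without a letter. This gave 55 of 20163 protein-coding genes. The cluster on chromosome 12 held 27 of them, which were the type II genes and KRT18, a type I gene that lies there. The other 28, all type I, lay on chromosome 17. KRT18 was counted with its chromosome.

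ChIP-seq, the sequencing of DNA recovered with an antibody from sheared chromatin, was carried out on untreated H2087 cells. The antibodies recognised acetylated lysine 27 of histone H3 (H3K27ac) and trimethylated lysine 4 of the same histone (H3K4me3). Each mark was represented by 1 library of this 1 line, and the input chromatin, the last of 3 samples, was not analysed here. Without replicates no test between marks or between clusters was made. Every value below describes these libraries, and the 95% intervals (exact Clopper-Pearson) cover counting error only, treating neighbouring genes as independent although they share intervals. Read counts are not part of the lists, so the depth is unknown and a gene without an interval cannot be told from a gene with too few reads.

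Keratins are the intermediate filament proteins of epithelial cells. An acidic type I keratin pairs with a basic type II keratin, and each type of epithelium uses its own pairs. Simple epithelia such as those of the lung are known for KRT8, KRT18, KRT7 and KRT19, the basal layer of stratified epithelia for KRT5 and KRT14, the layers above it for KRT1 and KRT10, and the hair shaft for a large group of hair keratins. H3K4me3 typically marks the promoters of active genes, and H3K27ac both these promoters and enhancers in use.

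The promoters of 3 members are shown first because the marks differed between them. The sequences run 5′ to 3′ along each gene, from 150 bases before to 25 bases after the start of the canonical transcript, and were read from GRCh37, the same build as hg19. Capitals mark matches on either strand to TATAAA (the core of the TATA box), GGGCGG (the core of SP1 sites), TGANTCA (the core of AP-1 sites) or GCCNNNGGC (known from TFAP2 sites). These letters were searched in the 300 bases from 250 before to 50 after each start. KRT3, the type II keratin of the cornea, lay at chr12:53189877-53190051 on the minus strand and had an interval of both marks within 1 kb of the start. The other 2 promoters, both on chromosome 17, had no interval of either mark anywhere within 5 kb of the gene. KRT20, a simple epithelial keratin known from the gut and the bladder, lay at chr17:39041470-39041644 on the minus strand. KRT10, the type I keratin of differentiating epidermis, lay at chr17:38978842-38979016 on the minus strand. KRT3 and KRT10 each held TATAAA about 30 bases before the start and 1 CpG in the 300 bases, while KRT20 held none of the motifs and 2 CpG.
KRT3: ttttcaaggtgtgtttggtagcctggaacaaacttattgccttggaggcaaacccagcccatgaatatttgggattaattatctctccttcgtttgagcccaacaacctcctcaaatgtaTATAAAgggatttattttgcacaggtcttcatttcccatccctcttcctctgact
KRT20: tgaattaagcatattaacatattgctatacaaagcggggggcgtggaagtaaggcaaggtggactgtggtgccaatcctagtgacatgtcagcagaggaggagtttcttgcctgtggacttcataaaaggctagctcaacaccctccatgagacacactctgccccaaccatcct
KRT10: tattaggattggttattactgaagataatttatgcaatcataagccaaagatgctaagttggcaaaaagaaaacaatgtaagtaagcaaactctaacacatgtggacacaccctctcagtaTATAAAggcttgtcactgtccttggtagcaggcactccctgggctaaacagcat

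H3K27ac lay over or within 5 kb of 19 of the 55 keratin genes, or 34.5% (95% CI 22.2 to 48.6), against 45.2% of all protein-coding genes. H3K4me3 was found in the same window of 11 genes, or 20% (95% CI 10.4 to 33.0), against 53.6%. Each of these 11 also had H3K27ac, so the count for both marks was 11 too, against 37.3% of all protein-coding genes. The keratin windows were shorter, with a median of 17.1 kb against 37.2 kb, and the part of this length in the lower shares was not tested. The remaining 36 genes had neither mark. The confidence interval for H3K4me3 lay below the share of all genes, while that for H3K27ac included it. Neighbouring genes share marked intervals and were counted as independent, so this is no test.

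The marks were unevenly spread over the clusters. On chromosome 12, 13 of 27 genes had H3K27ac (48.1%, 95% CI 28.7 to 68.1) and 10 had H3K4me3 (37.0%, 95% CI 19.4 to 57.6). On chromosome 17, 6 of 28 genes had H3K27ac (21.4%, 95% CI 8.30 to 41.0) and 1 gene, KRT19, had H3K4me3 (3.57%, 95% CI 0.0904 to 18.3). The confidence intervals of the clusters overlapped for H3K27ac and did not for H3K4me3. As neighbouring genes share intervals, this describes 1 line and is no test.

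Measured by length, the difference between the clusters was wider. The chromosome 12 cluster, extended by 5 kb at each end, spanned 794 kb and held 108 H3K27ac intervals. They covered 59.3 kb, which is 7.46% of the span against 0.269% of the genome. Its 51 H3K4me3 intervals covered 22.3 kb, or 2.81% of the span against 0.229% of the genome. The chromosome 17 cluster spanned 980 kb, of which 20 H3K27ac intervals covered 8.08 kb (0.824%) and 2 H3K4me3 intervals covered 665 bp (0.0678%). H3K4me3 thus covered a smaller share of the chromosome 17 cluster than of the genome.

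The surroundings of the chromosome 12 cluster were also rich in intervals. In the 5 Mb on each side H3K27ac covered 1.67% and H3K4me3 1.48%, against 0.789% and 0.717% beside the chromosome 17 cluster. The last column of the lists was read as the −log10 q of each peak, a measure of confidence that grows with depth and with local copy number. Values of 5 or more made up 21.0% of the H3K27ac and 26.5% of the H3K4me3 intervals beside the chromosome 12 cluster, against 8.84% and 16.7% of the whole lists. Beside the chromosome 17 cluster they made up 7.73% and 14.1%. The copy number of these regions in H2087 was not measured here, and its part in the difference between the clusters was not tested.

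**Figure D1:**
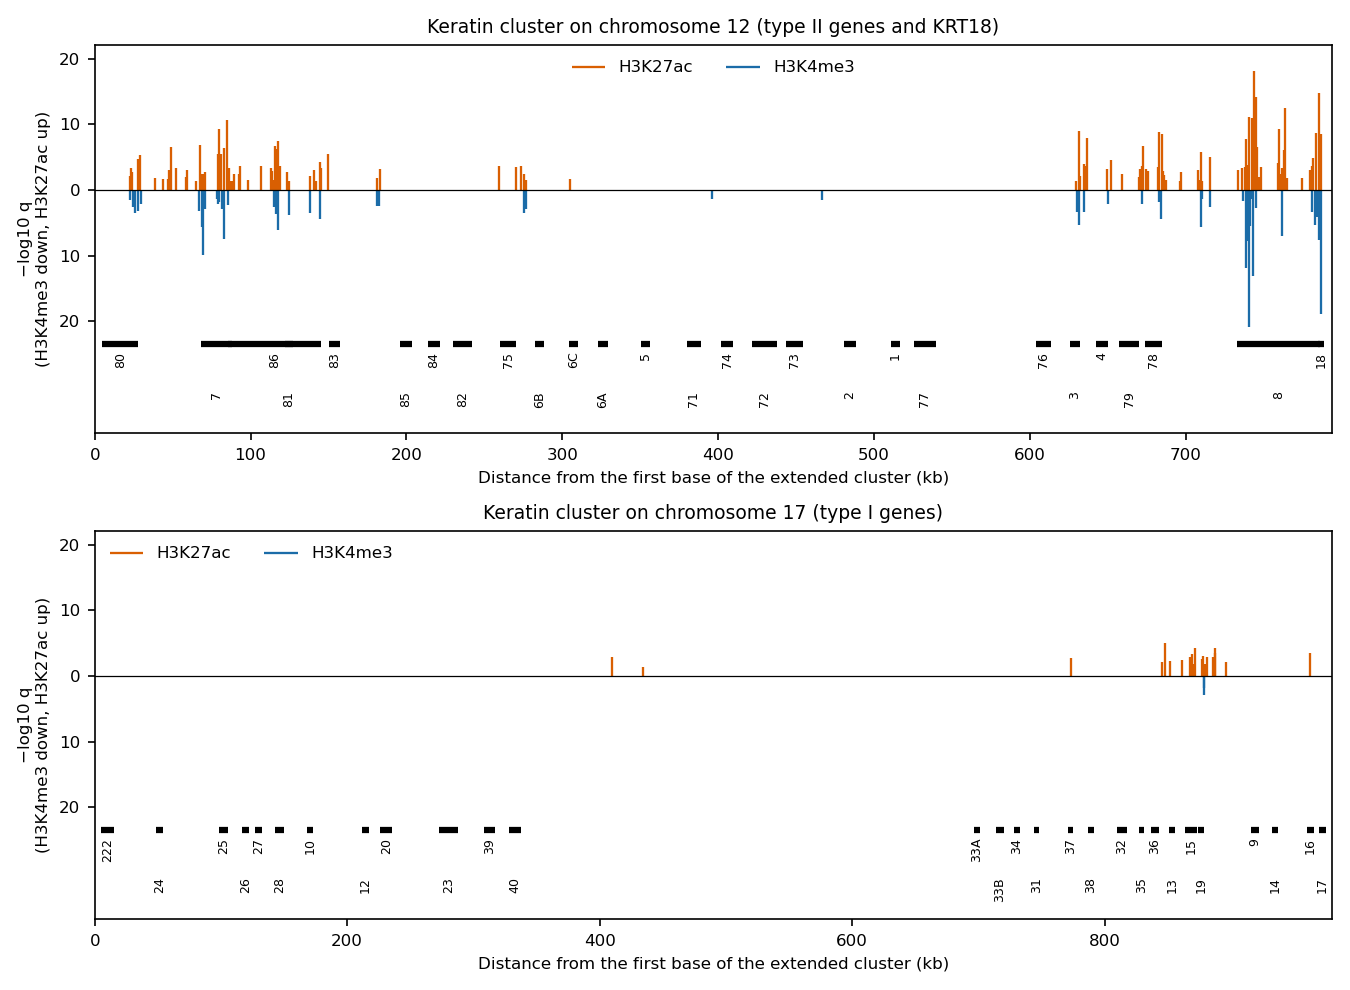
Intervals of H3K27ac (orange, upward) and H3K4me3 (blue, downward) in the keratin clusters, by distance in kb from the first base of each extended cluster (x axis) and −log10 q (y axis), with each gene as a black bar marked by the number of its symbol. On chromosome 12 the intervals stood at both ends, up to 18.1 for H3K27ac and 20.8 for H3K4me3, with a 324 kb stretch free of H3K27ac between them, and on chromosome 17 no value passed 4.99.

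Within the chromosome 12 cluster the marks lay at both ends, as the map of both clusters shows. The end with KRT80, KRT7 and KRT86 had 54 H3K27ac intervals over 9.16% of its 305 kb, and the end with KRT8 and KRT18 had 54 over 19.0% of its 164 kb. Between them ran 324 kb without H3K27ac (chr12:52863179-53187572). The 10 genes entirely inside were KRT6A, KRT5, KRT71, KRT74, KRT72, KRT73, KRT2, KRT1, KRT77 and KRT76, which by role are basal, suprabasal, activated or inner root sheath keratins. This stretch held 2 weak H3K4me3 intervals of 252 and 291 bp, with −log10 q of 1.42 and 1.53, and neither was within 5 kb of a member. The start of KRT73, a keratin of the inner root sheath, was 149 kb from the nearest H3K27ac interval. A second stretch of 76.1 kb without H3K27ac held the hair keratins KRT85, KRT84 and KRT82.

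The chromosome 17 cluster was empty over most of its length. The first 410 kb, with 12 genes from KRT222 to KRT40, had no H3K27ac, and the next stretch without it was 338 kb with the hair keratins KRT33A, KRT33B, KRT34 and KRT31. No H3K4me3 was listed over the 878 kb before KRT19, which hold 23 members, or over the 101 kb after it, which hold KRT9, KRT14, KRT16 and KRT17. Between the parts of the type I cluster lie 34 genes of keratin-associated proteins (KRTAP), which form the matrix of the hair shaft. H3K27ac lay within 5 kb of 3 of them (KRTAP2-2, KRTAP2-3 and KRTAP4-7), through intervals of 207 and 262 bp, and H3K4me3 of 0. No protein-coding gene other than a keratin lay inside the chromosome 12 span.

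Grouped by role, the simple epithelial keratins were the most often marked, with both marks at 4 of 5 genes, against 37.3% of all protein-coding genes. KRT20 was the exception, and its start was 174 kb from the nearest H3K27ac interval. A KRT7-positive and KRT20-negative keratin pattern is what pathologists commonly see in lung adenocarcinoma. The plot of length by gene gives these values for all 55 members.

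KRT8, the type II keratin of simple epithelia, had the longest marked length of all members. H3K27ac covered 18316 bp of its window in 26 intervals and H3K4me3 9655 bp in 14. The highest −log10 q within the keratin clusters was at KRT8 for both marks, 18.1 for H3K27ac and 20.8 for H3K4me3. The H3K4me3 interval with that value (chr12:53297844-53298801) began 59 bp inside the gene from the canonical start. The annotated gene is 52.8 kb long and reaches into KRT18, so 6 of its H3K27ac and 5 of its H3K4me3 intervals, which are all those of KRT18, were counted for both genes. Without intervals shared between windows, KRT8 had 11338 bp under H3K27ac and 5454 bp under H3K4me3, still the longest of the members counted that way, followed by KRT7 with 4737 bp and 2702 bp.

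The H3K27ac interval with the highest value lay upstream of the KRT8 start rather than on it. It spanned chr12:53301205-53301891, with its near edge at −2.35 kb from the canonical start, inside longer transcripts of KRT8, and an H3K4me3 interval of 1727 bp with a −log10 q of 13.0 lay over it. The 300 bases at its centre, chr12:53301399-53301698 on the plus strand of GRCh37, are shown because they carry this highest value. None of the 4 motifs occurred in them, and 0% of the 32-base words of the interval occurred elsewhere in the genome.
KRT8 upstream interval: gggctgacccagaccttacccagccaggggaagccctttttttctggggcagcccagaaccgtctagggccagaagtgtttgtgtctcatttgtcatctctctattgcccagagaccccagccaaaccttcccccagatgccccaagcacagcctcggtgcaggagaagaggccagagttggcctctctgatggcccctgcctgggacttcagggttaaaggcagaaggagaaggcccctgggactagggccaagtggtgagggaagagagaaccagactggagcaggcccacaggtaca

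KRT18, the type I partner of KRT8, lies beside it and is the 1 type I gene of the chromosome 12 cluster. Its 14.0 kb window had 6283 bp under H3K27ac (44.8%) and 4201 bp under H3K4me3 (29.9%), the highest shares of any member window for both marks. The highest −log10 q was 14.8 for H3K27ac, in an interval 64 bp downstream of the start, and 18.9 for H3K4me3, in an interval of 2103 bp inside the gene. KRT18 has many processed copies elsewhere in the genome, and 63.4% of the 32-base words of that H3K27ac interval occurred more than once. In the H3K4me3 interval of 2103 bp this share was 12.1%.

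KRT7, a type II keratin of simple and glandular epithelia, had 11726 bp under 16 H3K27ac intervals and 3782 bp under 10 H3K4me3 intervals. Its highest H3K4me3 value, 9.85, was at the start, in an interval beginning 1 bp downstream of it (chr12:52627028-52627663). Its highest H3K27ac value, 10.6, was at the other end of the gene, 14.6 kb downstream of the start, in an interval of 1632 bp (chr12:52641670-52643301). This interval also lay in the window of KRT86 and covered the outer start of that gene. H3K4me3 had a further interval inside KRT7 with a value of 7.53, which lay under an H3K27ac interval and in the window of KRT86 too.

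KRT19, the smallest type I keratin and a common partner of KRT7, was the most marked gene on chromosome 17. Its window had 3316 bp under 7 H3K27ac intervals with values up to 4.32, and 665 bp under 2 H3K4me3 intervals. The value of 4.32 belonged to an interval inside KRT15, while the H3K27ac interval 79 bp downstream of the KRT19 start had 3.05. Without intervals shared with KRT15, KRT19 had 1376 bp under H3K27ac. The H3K4me3 interval 79 bp downstream of the start had a value of 2.83, and the one upstream, with its edge at −263 bp, had 1.88, with 56.1% of its words found more than once in the genome. Within 1 kb of the start, H3K27ac covered 969 bp at KRT19 and 975 bp at KRT7, while H3K4me3 covered 665 bp and 1342 bp.

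**Figure D2:**
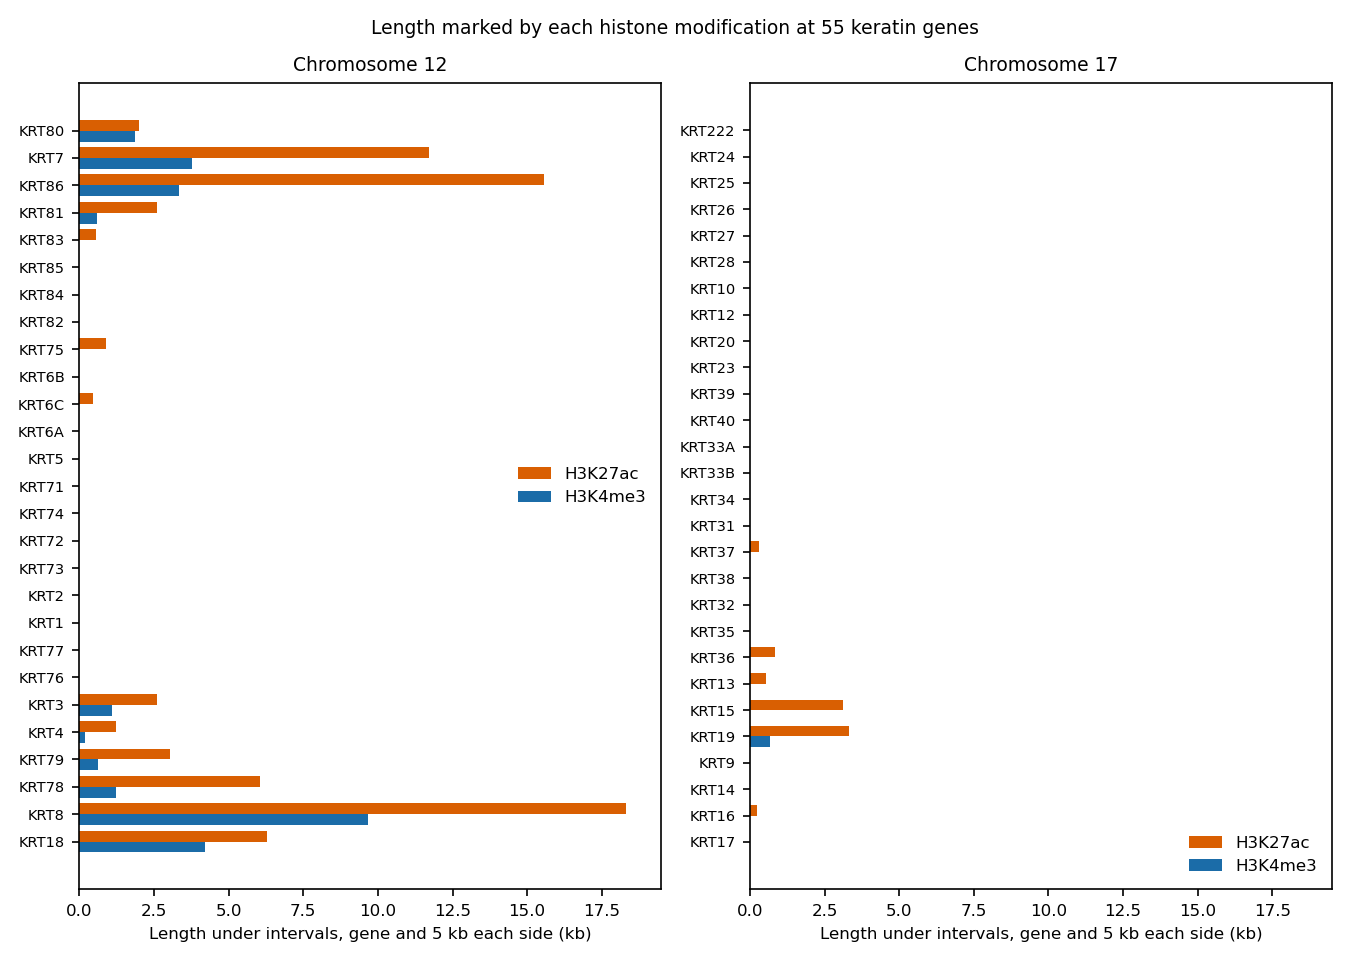
Length under H3K27ac (orange) and H3K4me3 (blue) intervals in kb (x axis) within each keratin gene and 5 kb on each side, with the genes in chromosomal order (y axis) and 1 library per mark. KRT8, KRT86 and KRT7 had the longest H3K27ac lengths, and 36 of the 55 genes had no bar.

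The pairs known from stratified epithelia differed in their marks, and none of those named here had H3K4me3 at both genes. KRT5 and KRT14, the pair of the basal layer, had no interval of either mark within 5 kb, and the same held for KRT1 and KRT10, the pair of the epidermal layers above it. KRT3 had 2602 bp under H3K27ac with values up to 8.92 and 1087 bp under H3K4me3 with values up to 5.31, whereas its partner KRT12 had none. KRT4, a keratin of mucosal epithelia, had 1227 bp under H3K27ac and 184 bp under H3K4me3, and its partner KRT13 had 518 bp under H3K27ac alone. KRT15, a basal keratin, had 3100 bp under 6 H3K27ac intervals with values up to 4.32 and no H3K4me3. Its neighbour KRT19 shared 4 of these intervals.

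Among the 11 keratins of suprabasal, mucosal, corneal or palmoplantar epithelia, 4 had H3K27ac and 3 had H3K4me3. Of all protein-coding genes, 45.2% and 53.6% had these marks within 5 kb. KRT78 had the longest length of the 11, 6047 bp under H3K27ac with values up to 8.82 and 1209 bp under H3K4me3 with values up to 4.45. Without intervals shared with KRT79, it had 3314 bp and 591 bp. KRT2, KRT1, KRT77, KRT76, KRT10, KRT12 and KRT9 had neither mark. Of the 5 activated or hyperproliferative keratins, which appear in wounded epidermis, KRT6C and KRT16 each had 1 H3K27ac interval. The KRT6C interval of 461 bp had a value of 1.65 and the KRT16 interval of 239 bp had 3.54, and 41.9% and 40% of their words occurred more than once in the genome. KRT6A, KRT6B and KRT17 had neither mark.

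The hair keratins numbered 17, of which 5 had H3K27ac and 2 had H3K4me3, against 45.2% and 53.6% of all protein-coding genes. KRT86 ranked after KRT8 in marked length, with 15553 bp under H3K27ac and 3344 bp under H3K4me3. This length came with its annotation, since a long transcript of KRT86 begins inside the window of KRT7 and both windows share intervals. Without shared intervals KRT86 had 4548 bp and 1665 bp. The canonical start of KRT86 had no interval within 1 kb, the nearest lying 2.05 kb away for H3K27ac and 4.10 kb for H3K4me3. KRT81 had 2595 bp and 599 bp, all in intervals that also lay in the window of KRT86. It again had no interval within 1 kb of its start. KRT83 had 563 bp of H3K27ac alone, in intervals that also lay in the window of KRT86, and KRT37 and KRT36 had 306 bp and 836 bp of it. The other 12 hair keratins (KRT85, KRT84, KRT82, KRT39, KRT40, KRT33A, KRT33B, KRT34, KRT31, KRT38, KRT32 and KRT35) had neither mark.

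Of the 9 keratins of the inner root sheath and companion layer, KRT75 alone was marked, against 45.2% of all protein-coding genes with H3K27ac. It had 897 bp of H3K27ac in 3 intervals with values up to 3.68, 1 of them over the start. KRT71, KRT74, KRT72, KRT73, KRT25, KRT26, KRT27 and KRT28 had neither mark. Of the 5 remaining members, KRT80 had 1995 bp under H3K27ac with values up to 5.40 and 1855 bp under H3K4me3 with values up to 3.54. KRT79 had 3020 bp and 618 bp, with values up to 6.77 and 2.15, and its H3K4me3 lay upstream of the start, with its edge at −1.54 kb. Without intervals shared with KRT78 or KRT4, KRT79 had 259 bp under H3K27ac and 0 bp under H3K4me3. KRT222, KRT24 and KRT23 had neither mark.

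Starts were then scored apart from the gene windows. With the outer 5′ end of each gene, 11 keratin starts had H3K27ac within 1 kb (20%, 95% CI 10.4 to 33.0), against 23.6% of all protein-coding starts, and 9 had H3K4me3 (16.4%, 95% CI 7.77 to 28.8), against 38.2%. Both counts included KRT8 and KRT86, whose outer starts lay inside KRT18 and KRT7. The intervals near these outer starts also lay in the windows of KRT18 and KRT7. With the canonical start, the counts were 12 for H3K27ac (21.8%, 95% CI 11.8 to 35.0) against 25.2%, and 8 for H3K4me3 (14.5%, 95% CI 6.5 to 26.7) against 41.3%. The 8 genes were KRT80, KRT7, KRT3, KRT4, KRT78, KRT8, KRT18 and KRT19. KRT75, KRT79, KRT15 and KRT16 had H3K27ac at the canonical start without H3K4me3.

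**Figure D3:**
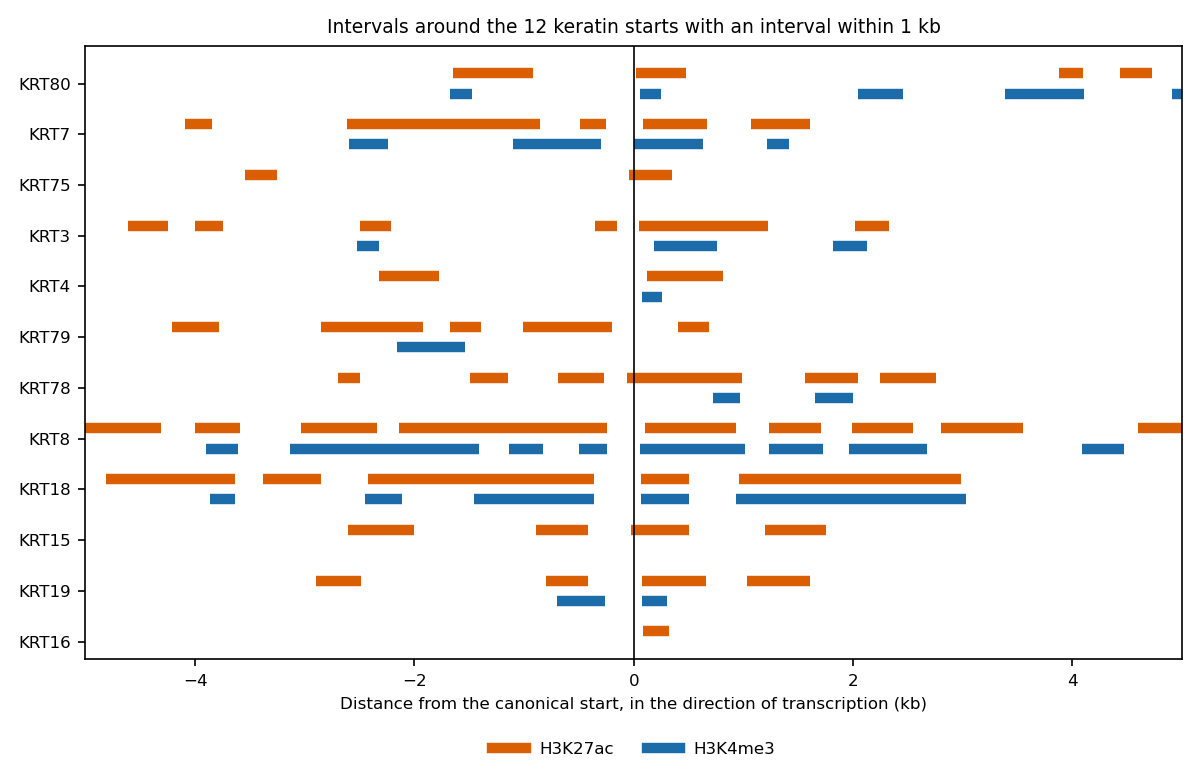
Intervals of H3K27ac (orange) and H3K4me3 (blue) around the canonical starts of the 12 keratin genes with an interval within 1 kb, by distance in kb in the direction of transcription (x axis) and gene (y axis). KRT8 and KRT18 had several intervals of both marks on each side of the start, whereas KRT16 had 1 H3K27ac interval.

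By a rule of at least 1 shared bp, intervals of the marks coincided more often at the type II cluster than over the whole list. On chromosome 12, 43 of 108 H3K27ac intervals shared at least 1 bp with an H3K4me3 interval (39.8%, 95% CI 30.5 to 49.7), against 24% of the whole list. In the other direction, 45 of 51 H3K4me3 intervals shared bases with H3K27ac (88.2%, 95% CI 76.1 to 95.6), against 31.1%. The H3K27ac intervals of this cluster were wider, with a median of 418 bp against 284 bp in the whole list. Both marks also lay denser there than over the genome. The part of width and density in these shares was not tested. On chromosome 17, 2 of 20 H3K27ac intervals did (10.0%, 95% CI 1.23 to 31.7), both at KRT19. Of the 108 H3K27ac intervals of the type II cluster, 90 were more than 1 kb from any canonical start of a member, and 39 of the 51 H3K4me3 intervals were too. Starts of other transcripts were not counted, and the same shares over the whole lists are not given here. In all, 27 of the 108 H3K27ac intervals lay in a member but outside the canonical transcripts of members.

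Joined across distances of up to 10 kb, the H3K27ac intervals formed 12180 stitched regions in the genome, ranked by the length under intervals. The region from KRT80 to KRT81 (chr12:52580469-52682589) ranked 2, with 40 intervals and 22.6 kb under them across 102 kb. The region over KRT18 and the far part of KRT8 (chr12:53317226-53345888) ranked 22 with 9.93 kb, and the region over the KRT8 start (chr12:53291161-53306339) ranked 35 with 8.39 kb, which was 55.3% of its length. The region of KRT79 and KRT78 ranked 60 with 6.59 kb. On chromosome 17, 16 of the 20 intervals fell into 1 region over KRT13, KRT15 and KRT19 (chr17:39651033-39702473), which ranked 52 with 7.07 kb. Joining depends on the distance allowed, and within 5 kb the KRT80 to KRT81 region kept 12 intervals and 8.96 kb.

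The base composition of keratin promoters was unlike that of most genes. The median keratin promoter of 300 bases held 3 CpG and 48.3% G and C, against 23 CpG and 63.3% over all protein-coding genes. At most 5 CpG were held by 40 keratin promoters (72.7%), against 18.6% of all genes. Among all genes, H3K4me3 lay within 1 kb of 2.59% of canonical starts with up to 5 CpG, of 19.6% with 6 to 15, and of 57.6% with 16 or more. In the same classes it lay at 3 of 40 (7.50%), 2 of 11 (18.2%) and 3 of 4 (75.0%) keratin starts. The 4 CpG-rich keratin promoters were those of KRT7, KRT18, KRT19 and KRT72, and KRT72, a keratin of the inner root sheath with 17 CpG, was the unmarked one. The other keratin genes with H3K4me3 at the start had little CpG. KRT8 and KRT78 held 7 CpG, KRT80 and KRT4 held 5, and KRT3 held 1.

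**Figure D4:**
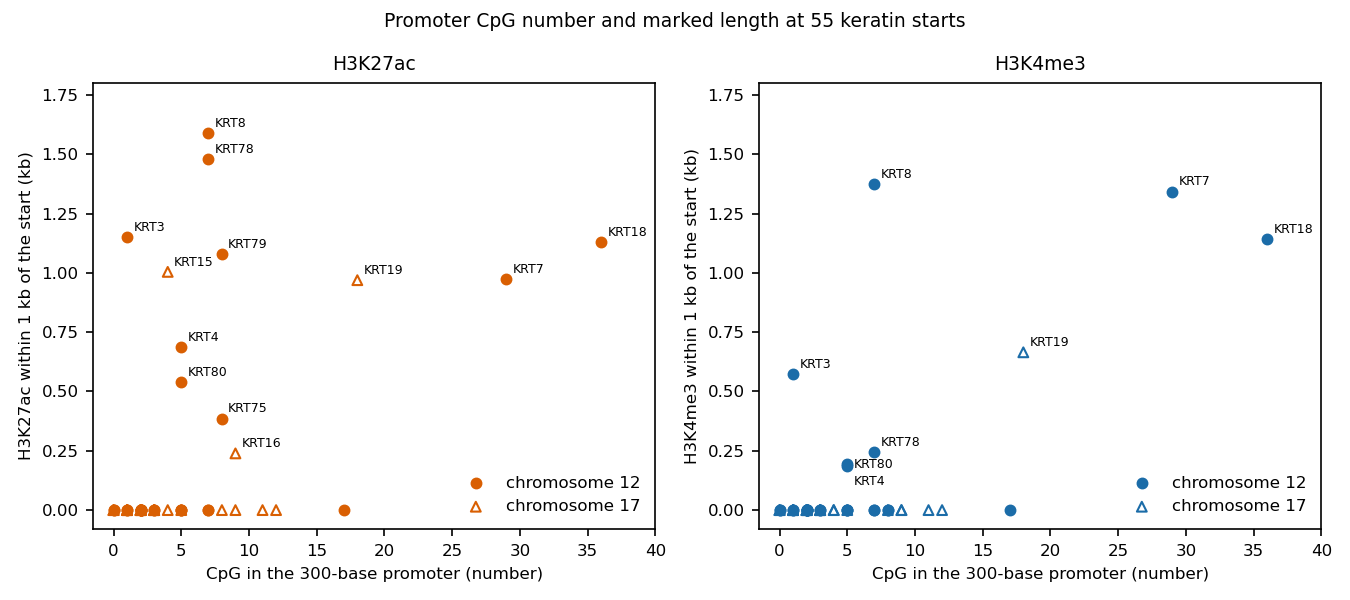
Number of CpG in the 300-base promoter (x axis) and length in kb under H3K27ac (left) or H3K4me3 (right) within 1 kb of the canonical start (y axis) for 55 keratin genes, filled on chromosome 12 and open on chromosome 17. Most genes lay at 0 kb with few CpG, and KRT7, KRT18 and KRT19 stood apart at 29, 36 and 18 CpG.

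TATAAA occurred on either strand in 27 of 55 keratin promoters (49.1%), against 9.80% of all promoters. Read on the strand of the gene at positions −36 to −24, where TATA boxes lie, it occurred in 20 keratin promoters (36.4%), against 3.79% of all. Of these, 3 were on chromosome 12 (KRT71, KRT76 and KRT3) and 17 on chromosome 17. Only these exact letters were counted, so a promoter without them, such as KRT6A with TATATAAG, can still hold related letters near these positions. KRT3 was the 1 gene of the 20 with H3K4me3 at the start, and KRT3 and KRT16 those with H3K27ac. Over all genes, 148 of 765 promoters with TATAAA at these positions had H3K4me3 (19.3%) and 97 had H3K27ac (12.7%).

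GGGCGG occurred in 13 keratin promoters (23.6%), against 60.9% of all. TGANTCA occurred in 5 (9.09%), against 5.42%, and these were KRT13, KRT15, KRT14, KRT16 and KRT17, all on chromosome 17. GCCNNNGGC occurred in 9 (16.4%), against 29.4%. A match is a run of letters and no measured binding.

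Keratin genes share sequence with their neighbours and with processed copies, which affects where short reads can be placed, and how reads with several matches were treated is not given in the sources used here. On chromosome 12 the median share of 32-base words found more than once in the genome was 8.49% in the 13 marked genes and 2.63% in the 14 unmarked ones. On chromosome 17 it was 7.04% in the 6 marked and 9.43% in the 22 unmarked genes. KRT81 had the highest share, 56.9%, followed by KRT6C with 49.8% and KRT6B with 43.0%. Among genes with neither mark, KRT5, KRT1 and KRT10 had 2.87%, 0.177% and 0%, whereas KRT14, KRT17 and KRT6A had 29.7%, 33.3% and 34.7%. More than 50% multi-copy words were found in 8 of 108 H3K27ac and 5 of 51 H3K4me3 intervals on chromosome 12, and in 2 of 20 and 1 of 2 on chromosome 17. The part of multi-copy sequence in the counts was not tested.

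**Figure D5:**
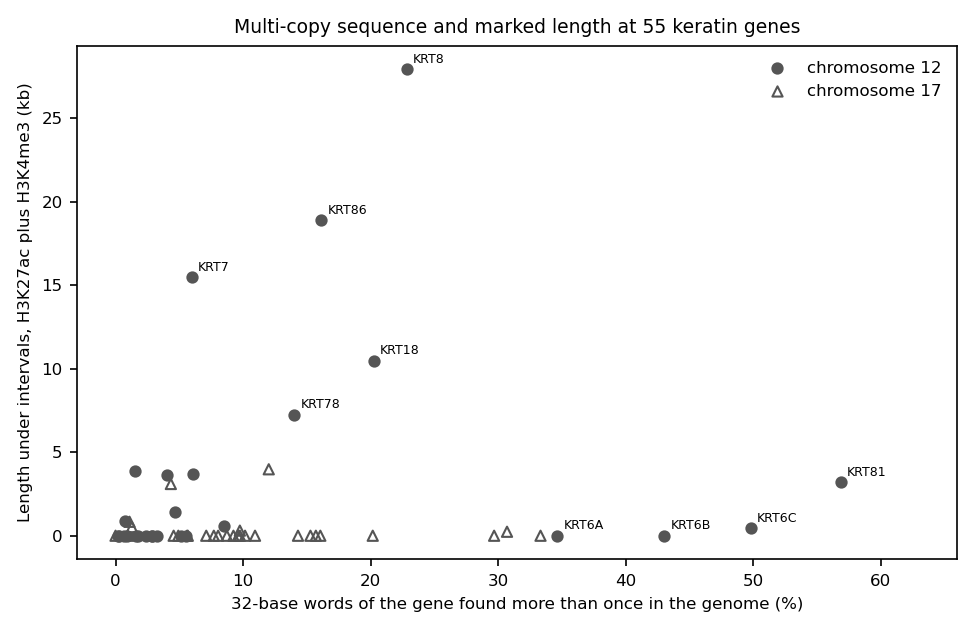
Share of 32-base words of each gene found more than once in the genome in % (x axis) and length under intervals of both marks together in kb (y axis) for 55 keratin genes, filled on chromosome 12 and open on chromosome 17. KRT8, KRT86 and KRT7 had the longest lengths at 22.8%, 16.1% and 6.0%, and KRT81, KRT6C and KRT6B lay farthest to the right.

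Genes that work with keratins were scored in the same way at their canonical starts. Of 15 non-keratin intermediate filament genes, 5 had H3K27ac and 4 had H3K4me3, among them the nuclear lamin genes LMNA, LMNB1 and LMNB2 with both marks. VIM, the intermediate filament gene of mesenchymal cells, had no interval within 5 kb. Of 13 genes whose products anchor or organise keratin filaments, 7 had H3K27ac and 7 had H3K4me3, with both marks at EPPK1, PPL, EVPL, PKP2, PKP3 and JUP. These shares stood beside 25.2% and 41.3% of all canonical starts.

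Marker genes were scored at their canonical starts too, as a description and not as a check of the label of the line. These lists were chosen with earlier results of these data known. Over all protein-coding genes, 25.2% of canonical starts had H3K27ac and 41.3% had H3K4me3. All 5 epithelial markers (EPCAM, CDH1, ESRP1, GRHL2 and CLDN4) had both marks at the canonical start. Of 5 lung adenocarcinoma markers, NKX2-1 and SFTA3 had both, MUC1 had H3K27ac, and NAPSA and SFTPB had neither at the start. SFTA3 overlaps NKX2-1, so these share intervals. Of 5 squamous or basal markers, 2 of which are the members KRT5 and KRT14, SOX2 had both marks and the others neither at the start. Of 5 mesenchymal markers, ZEB1 had H3K4me3 and none had H3K27ac.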

How the data were processed

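ChIP-seq of H3K27ac and H3K4me3 in untreated H2087 cells gave 1 peak list per mark. Reads were aligned to hg19 with Bowtie, and MACS2 2.1.0 called the peaks. The submitters' processing notes name bcl2fastq 1.8.4, Bowtie 1.1.1, SAMtools 1.2, Picard 1.118 and ChIPseeker 1.6.6. Input chromatin was kept for normalization, but its use in peak calling, the threshold and the treatment of duplicates are not given in the sources used here. The deposited lists hold positions, a name and a value without header, which was taken, from the numbers alone, to be −log10 q as written by the authors' peak caller. Its smallest values were 1.303 and 1.306, against 1.301 for a q of 0.05.

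Distinct intervals were kept with their highest value (24096 H3K27ac and 18585 H3K4me3 intervals) and scored, in 1-based positions, against GENCODE 44 genes extended by 5 kb, outer starts and canonical starts (282 genes without one took the outer start) within 1 kb. Words of 32 bases were taken every 10 bases on both strands of GRCh37. No test was made, with 1 library per mark. Python 3.11.15, pandas 2.3.3 and scipy 1.17.1 were used, and interval and word counts were tested on simulated data. Depth is unknown.

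The members, roles, marker lists and motifs were chosen with earlier results of these data known. Canonical starts, CpG classes, the TATA positions and starts covered by an interval were added after the lists had been seen. Each member with an interval within 5 kb is named, the 8 with the longest length under both marks are described in full, and the others are named by role. Alternatives were judged by the confidence interval for shares and by a factor of 1.5 for counts and lengths. They used intervals at or above the median value of each list, merging within 1 kb, a minimum width of 200 bp, other windows, start distances and definitions, other overlaps and other joining distances. Some promoter sequences are not reported here.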

Additional observations from a re-analysis of the deposited data

How the results depend on the processing

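No replicate could be left out. No paired analysis was possible because there was 1 library for a mark. Of 106 alternative values for 16 results, 80 stayed within the tolerance and 26 moved. The share of chromosome 12 H3K27ac intervals that overlapped H3K4me3 (39.8%) was 21.3% when 50% of the interval had to be covered, 58.3% within 1 kb, and 27% in the upper part of each list. The chromosome 17 H3K27ac starts (1) numbered 4 within 3 kb, 4 with any transcript and 3 with the canonical start, the last chosen after seeing the data. KRT19 was the 1 chromosome 17 gene with H3K4me3, and a window of 10 kb gave 3 genes. In the upper part of each list the chromosome 17 H3K4me3 genes, starts and length and the overlap of the marks there (10.0%) were all 0, and merging made that length 1.01 kb instead of 0.665 kb. The KRT80 to KRT81 stitched region (40 intervals, 22.6 kb) had 12 intervals and 8.96 kb when joined within 5 kb, and 13 intervals and 11.4 kb in the upper part. With a −log10 q of at least 5, an alternative chosen after seeing the data, chromosome 12 kept 27.4 kb of H3K27ac (59.3 kb), 10.4 kb (22.3 kb), 6 genes (10) and 4 starts (8) of H3K4me3, and on chromosome 17 the genes, lengths and starts of both marks were 0. The depth behind these values is unknown. The chromosome 12 cluster had more marked genes, starts and length than the chromosome 17 cluster for both marks in every alternative run on both.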

Other observations

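Intervals often stopped short of the start base itself. The canonical start base was covered by an H3K4me3 interval at 0 of the 8 keratin genes with H3K4me3 within 1 kb, and at 595 of 8331 such genes in all (7.14%). For H3K27ac it was covered at 3 of 12 keratin genes (KRT75, KRT78 and KRT15), and at 220 of 5085 in all (4.33%). All 8 keratin genes had an H3K4me3 interval downstream of the start within 1 kb, against 87.3% of all such genes, and 4 of them had one upstream, against 41.4%. The nearest downstream edge was at 1 bp for KRT7, 59 bp for KRT8, 61 bp for KRT80, 67 bp for KRT18, 71 bp for KRT4, 79 bp for KRT19, 188 bp for KRT3 and 724 bp for KRT78.

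Protein-coding genes on both sides of the type II cluster were marked. On the KRT18 side EIF4B, a translation factor gene 53.4 kb beyond the last keratin, had 2393 bp under H3K27ac and 3509 bp under H3K4me3 within 5 kb. TNS2, a gene of focal adhesions, had 8628 bp and 5313 bp, with −log10 q up to 15 and 24.5, and SPRYD3 had 4310 bp and 1546 bp. On the other side ATG101, an autophagy gene, had 916 bp and 752 bp, NR4A1, a nuclear receptor gene, had 1087 bp and 1006 bp, and SMIM41 had neither mark. Genes beside the type I cluster were marked too. TNS4 had 597 bp under H3K27ac and 1052 bp under H3K4me3, and HAP1 had 582 bp and 214 bp. SMARCE1 and EIF1 had H3K4me3 alone, over 369 bp and 762 bp, and CCR7 and GAST had neither mark.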
